A study of Mus musculus with 24 samples.

Results

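Macrophage and alternative activation genes were followed in 24 mammary tumors of BALB/c mice. The 9 genes were Emr1 (now Adgre1), Cd68, Csf1, Csf1r, Mrc1, Cd163, Nos2, Chi3l3 (now Chil3) and Retnla. They were taken by name from the array design, which gave 16 of 39429 probes and 9 of 30118 genes, and all 9 genes passed the filter on dim signals. All mice were female, and all tumors, the LFD tumors included, had been induced by weekly gavage of the carcinogen 7,12-dimethylbenz[a]anthracene (DMBA) begun at 5 weeks of age. A low-fat diet (LFD) or a high saturated animal fat diet (HFD) was started at 3 weeks of age. It was either kept or exchanged for the other diet at 9 weeks, which gave the LFD-HFD and HFD-LFD groups. The labels sort tumors by the time to their appearance into early and late. There were 5 LFD tumors, 4 LFD-HFD tumors, 6 HFD-late, 3 HFD-early, 3 HFD-LFD-late and 3 HFD-LFD-early tumors. The LFD and LFD-HFD tumors were all late, so 6 tumors were early and 18 were late. Nothing in the labels says whether any of these tumors shared a mouse, so the tests below measure the spread between tumors.

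Macrophages mature from monocytes and depend on colony-stimulating factor 1, the product of Csf1, which signals through the receptor kinase encoded by Csf1r. Interferon and bacterial products drive the classical state, in which Nos2 turns arginine into nitric oxide. Interleukins of the type 2 response drive the alternative state through the transcription factor STAT6, with Chi3l3, Retnla and Mrc1 among its usual mouse markers. In mammary tumors and in fat tissue these cells clear debris, remodel matrix and support vessel growth. The study counted cells stained for F4/80, the product of Emr1, in sections of HFD-LFD and LFD-HFD tumors, which is why that pair of diets is compared here. The arrays measured RNA of whole tumor pieces, in which fewer macrophages and less RNA per macrophage cannot be told apart.

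The 60-base array probe for the most used surface marker of mouse macrophages is shown because the level given for this gene rests on 1 oligonucleotide. Its position on mouse build mm9 is chr17:57620350-57620409 on the plus strand.
Emr1: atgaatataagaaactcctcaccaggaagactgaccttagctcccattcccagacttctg

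The promoter of Retnla is shown because Retnla was the member that differed most between early and late tumors and is a well-known STAT6 target. The 250 bases before its start are from RefSeq on build GRCm38.p6, chr16:48842359-48842608 on the plus strand, and capitals mark a match to the STAT motif TTCNNNNGAA.
Retnla: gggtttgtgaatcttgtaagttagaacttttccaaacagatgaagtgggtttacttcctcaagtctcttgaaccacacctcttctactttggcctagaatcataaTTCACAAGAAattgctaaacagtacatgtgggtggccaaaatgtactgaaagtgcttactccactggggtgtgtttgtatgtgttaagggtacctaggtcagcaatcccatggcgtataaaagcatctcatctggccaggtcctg

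The match began 145 bases before the start. The motif reads the same on both strands, and both were searched. Promoter windows of 300 bases, 250 before to 50 after the start, were searched for 6 of the 9 members. Of these, only that of Retnla held the motif, and those of Emr1, Nos2 and Csf1r were not searched. Among 32544 such mouse windows 6.98% held it. A match describes letters and does not show that a factor bound there.

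Each array compared 1 tumor with a reference pool of RNA from 11 mouse cell lines, and every level below is the log2 ratio of tumor to reference, so a level compares tumors for 1 gene and not genes with each other. The labels give the tumor RNA as Cy5, whereas the study's methods name the opposite dye. The signals follow the labels: over 21510 spots, log2 signals varied between arrays with a median SD of 0.636 in Cy5 and 0.184 in Cy3. All signs below therefore oppose those that the methods' dye order would give. On an array, 65.3% to 89.1% of probes were well above background in Cy5 and 61.9% to 86.4% in Cy3. On 7 arrays of 2 slides, rows of spots were dimmed in Cy5 and set missing. Arrays were scanned in 3 sessions. The first held 3 early and 8 late tumors, the second 3 early and 3 late, and the third 7 late tumors alone.

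With the brightest probe standing for each gene, Retnla was the 1 member called between early and late tumors, 3.03-fold lower in early tumors. The other 8 members gave differences from -0.68 to 0.18 log2 units, none of which passed the test on that probe. Csf1 was called lower on 2 of its other probes, described below. By limma with Benjamini-Hochberg adjustment, 15.7% of the 20926 genes tested were called at an adjusted p under 0.05, and 9.6% were called and lower in early tumors. The count of 1 in 9 is thus near these shares and is no result about the members. At an unadjusted p under 0.05 there were 2 members, Retnla and Nos2, against 32% of all genes. The 3 HFD-early tumors shared 1 slide with no late tumor. The 3 HFD-LFD-early tumors shared another, with 1 late LFD-HFD tumor. Onset and slide are thus largely mixed over all tumors, and with slide as a random block 6.52% of genes were called. The median difference of the members was -0.12, beside -0.05 over all genes, with 3 members higher and 6 lower in early tumors. Centring each array on its median moved the median of all genes to 0.22 and the share of called genes that were higher from 38.7% to 82.7% (62.7% from the tumor channel alone). Cd68, Csf1 and Csf1r changed sign under that centring, and Retnla did not.

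**Figure D1:**
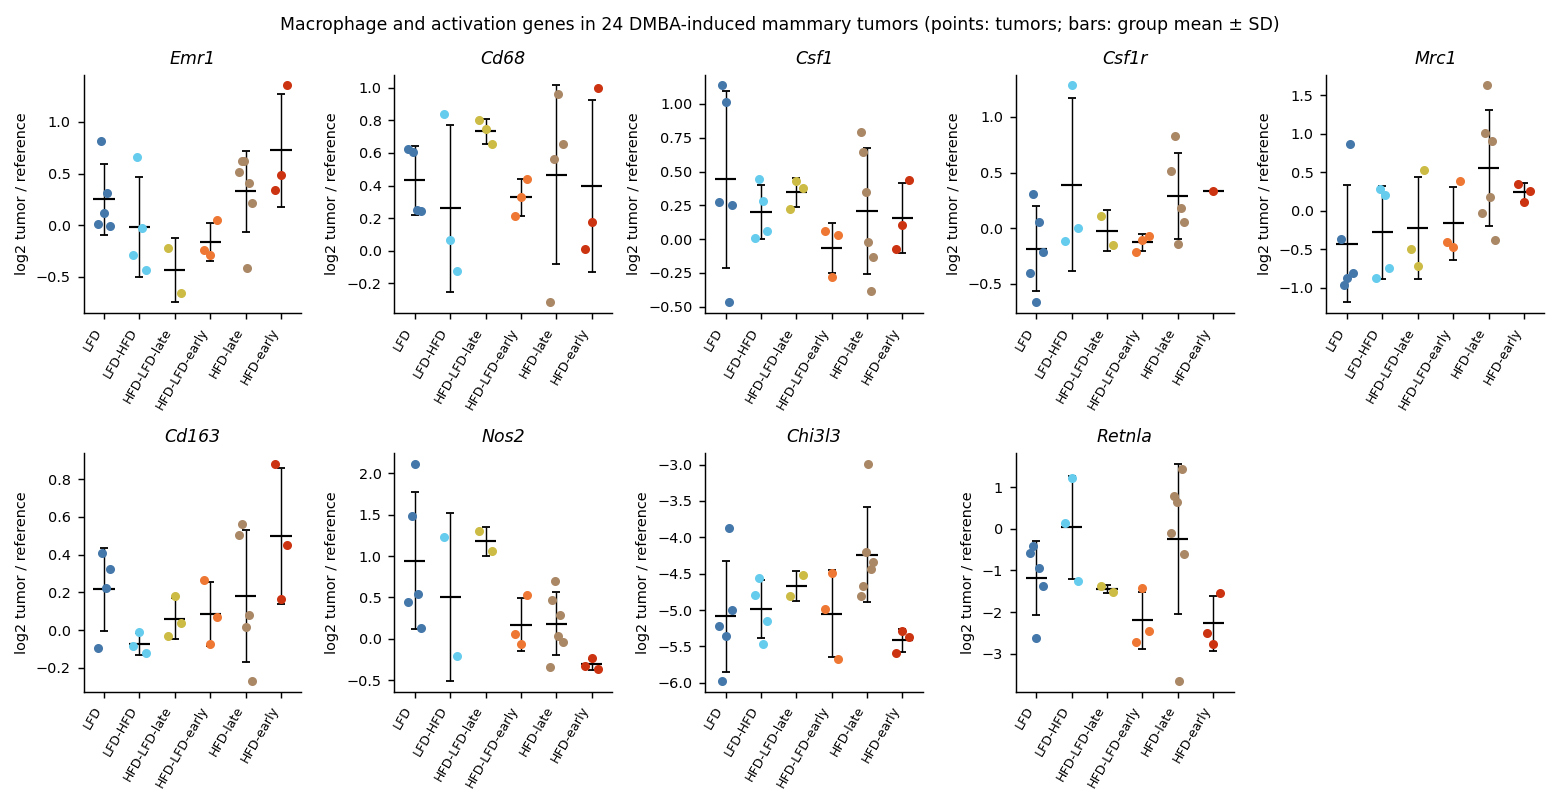
Log2 ratio of tumor to reference (y axis) for each of the 9 genes in the 6 groups (x axis), with 1 point per tumor and bars for the group mean ± SD. Retnla of the 3 HFD-early tumors lies between -2.78 and -1.54, and the 6 HFD-late tumors span -3.65 to 1.43. Csf1r was measured in only 1 HFD-early tumor, which has no SD.

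Emr1 encodes the F4/80 antigen, an adhesion receptor of mature mouse macrophages. Its levels ran from -0.29 to 1.35 in the 6 early tumors (median 0.19) and from -0.66 to 0.81 in the 17 late tumors with a value (median 0.11). The ranges overlapped widely, and the difference of 0.15 ± 0.22 (SE) had an adjusted p of 0.677. By group, the 3 HFD-early tumors were at 0.34, 0.49 and 1.35, and the 3 HFD-LFD-early tumors at -0.24, -0.29 and 0.05. On this probe early tumors of the 2 diets did not overlap, a pattern seen after the values were known and not tested. On the second Emr1 probe they did, from 0.21 to 1.08 in HFD-early and from 0.34 to 0.76 in HFD-LFD-early tumors. The highest level of all belonged to 1 HFD-early tumor, and without it the early minus late difference was -0.07. The second probe correlated with the first at r = 0.57 over 19 arrays and gave a difference of -0.08.

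Cd68 encodes a lysosomal glycoprotein of macrophages and other phagocytes. Early tumors ran from 0.01 to 1.0 (median 0.27) and the 14 measured late tumors from -0.32 to 0.96 (median 0.62). The difference was -0.11 ± 0.18, adjusted p = 0.715. The 3 HFD-LFD-late tumors lay close together at 0.80, 0.75 and 0.65, above the 3 HFD-LFD-early tumors at 0.21, 0.33 and 0.44. That within-diet difference of -0.40 had an adjusted p of 0.593. A second, dimmer Cd68 probe correlated with the first at only r = 0.23 over 19 arrays and gave 0.34 (adjusted p = 0.188), so the 2 probes differed in sign. On it the HFD-LFD-late tumors were at 0.66, 0.65 and -0.06 and the HFD-LFD-early tumors at 0.29, 0.17 and 0.21, which overlapped.

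Csf1 is the ligand. Its main probe, A_51_P195506, is spotted 10 times on each array, and the SD of those spots within an array had a median of 0.078 and a maximum of 0.92, beside an SD of 0.40 between the 24 tumors. Early tumors ran from -0.28 to 0.44 (median 0.04) and late tumors from -0.47 to 1.14 (median 0.28). All 6 early values lay inside the late range, and the difference was -0.25 ± 0.18, adjusted p = 0.356.

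The array carries 3 other Csf1 probes. A_55_P2169669, at chr3:107548521-107548580 on mm9, and A_55_P2017914, at chr3:107548550-107548609, overlap and are filed under a different Csf1 transcript from the main probe at chr3:107544333-107544392, which lies nearer the 3′ end of this minus-strand gene. They were singled out after their values were seen. On A_55_P2169669 the early tumors were at -0.56, -0.32 and -0.12 (HFD) and -0.51, -0.38 and -0.06 (HFD-LFD). The late tumors ran from -0.83 through a median of 0.60 to 1.49. All 6 early tumors were thus below 0, and 16 of 18 late tumors were above it.

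With each probe fitted on its own, where 15% of all probes were called, Csf1 fell by 0.86 log2 units in early tumors on A_55_P2169669 (limma adjusted p = 0.012). On the overlapping A_55_P2017914 it fell by 0.74 (adjusted p = 0.018). Both calls were made again in each of 24 fits that left out 1 tumor, and in 11 and 10 of 14 other settings. Median centring ended both calls and gave the smallest differences, -0.53 and -0.44 (adjusted p = 0.128 and 0.189). The tumor channel alone also ended both, at -0.70 on each probe (adjusted p = 0.067 and 0.082), and slide as a random block ended the call of A_55_P2017914 (-0.81, adjusted p = 0.055). Within scan session 1, where neither was called, the differences were -0.91 and -0.78 (adjusted p = 0.052 and 0.073), and within session 2 they were -1.18 and -1.11 (adjusted p = 0.015 and 0.012). Neither probe was called within a single diet. Within HFD they gave -0.49 and -0.31 (limma adjusted p = 0.304 and 0.484), and within HFD-LFD -1.15 and -1.02 (adjusted p = 0.133 and 0.129). On A_55_P2169669 the late means were 0.16 in HFD, 0.83 in HFD-LFD, 0.60 in LFD and 0.81 in LFD-HFD tumors. LFD and LFD-HFD had no early tumors, so onset and diet are mixed in the differences over all tumors. The 2 probes correlated at r = 0.98 over 23 arrays and share part of their bases. They correlated at 0.65 and 0.60 with the main probe. The gap between A_55_P2169669 and the main probe in the same tumor averaged -0.37 ± 0.22 (SD) over the 6 early tumors and 0.24 ± 0.42 (SD) over the 18 late ones. This gap is a description of probes chosen for their values, with no test. Which Csf1 transcripts each probe detects was not tested. The fourth probe, A_55_P2017911, was well above background on 0 of 24 arrays and was not tested.

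**Figure D2:**
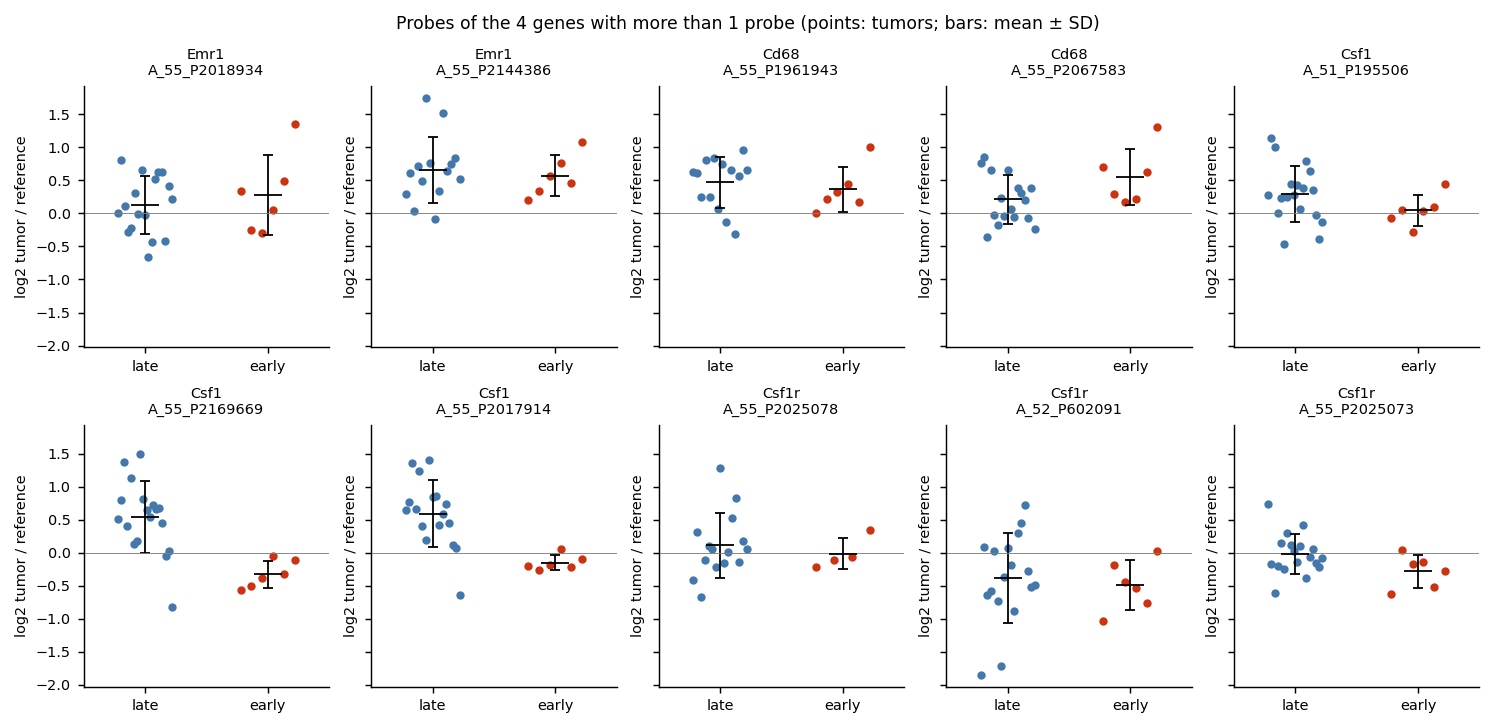
Log2 ratio of tumor to reference (y axis) of late and early tumors for each tested probe of the 4 genes with more than 1, with 1 point per tumor and bars for the mean ± SD. On the Csf1 probe A_55_P2169669 all 6 early tumors lie between -0.56 and -0.06, and on A_51_P195506 between -0.28 and 0.44. Both spans lie inside the late range of their probe.

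Csf1r encodes the receptor for colony-stimulating factor 1. Early tumors were at 0.34 (1 HFD-early tumor) and at -0.21, -0.11 and -0.07 (HFD-LFD-early), and 2 HFD-early tumors had no value because their spots carried the scanner's outlier mark. The 15 measured late tumors ran from -0.67 through a median of 0.05 to 1.28. The difference was -0.12 ± 0.24, adjusted p = 0.762, which rests on 4 early tumors. The 3 Csf1r probes disagreed across arrays. The brightest correlated with the others at 0.53 and -0.02 over 19 arrays, and those 2 with each other at -0.27 over 23. Both others were measured in all 6 early tumors and had lower early means. These were -0.49 early and -0.39 late on A_52_P602091, and -0.28 and -0.02 on A_55_P2025073. Neither was called in any of 24 fits that left out 1 tumor.

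Mrc1 and Cd163 are scavenger receptors of tissue macrophages, the first for mannose-bearing glycoproteins and the second for haptoglobin-bound haemoglobin. Mrc1 ran from -0.47 to 0.38 in early tumors and from -0.97 to 1.63 in late tumors, a difference of 0.07 ± 0.32 (adjusted p = 0.900). The 3 HFD-early tumors were the tightest group, at 0.35, 0.11 and 0.26, inside the HFD-late range of -0.38 to 1.63. Cd163 ran from -0.07 to 0.88 in early tumors and from -0.27 to 0.56 in late tumors, a difference of 0.18 ± 0.13 (adjusted p = 0.374). Its signal was dim, well above background on 21 arrays in Cy5 and on 11 in Cy3, so on most arrays its ratio sets at least 1 dim signal against the other.

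Between the diets, the onset difference within HFD minus that within HFD-LFD gave 0 members called and 0 under an unadjusted limma p of 0.05, where 0.00965% of genes were called and 7.65% were under that p. The members' values of this difference had a median of 0.15.

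Nos2 encodes the inducible nitric oxide synthase of classically activated macrophages. Early tumors were at -0.33, -0.23 and -0.37 (HFD) and 0.05, -0.07 and 0.53 (HFD-LFD). The 15 measured late tumors ran from -0.34 through a median of 0.46 to 2.12. All 6 early tumors but 1 sat inside the late range, the exception being an HFD-early tumor just below it, and the difference of -0.68 ± 0.29 had an unadjusted limma p of 0.0266 and an adjusted p of 0.105. It was -0.94 within scan session 1 and -0.54 within session 2 (adjusted p = 0.193 and 0.413). Nos2 had no value on 3 arrays, all late, whose spots lay in dimmed rows.

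Chi3l3 encodes Ym1, a secreted chitinase-like protein without enzyme activity. Its levels were far below the reference pool in every tumor, from -5.68 to -4.49 in early and from -5.97 to -2.99 in late tumors. The difference was -0.52 ± 0.29, adjusted p = 0.212. In Cy5 the probe was well above background on 3 of 5 LFD arrays and on all arrays of the other groups. Within HFD the early tumors, at -5.59, -5.29 and -5.38, lay below all 6 late tumors, which ran from -4.81 to -2.99. That difference of -1.18 ± 0.39 had an adjusted p of 0.055. It was -0.93 (adjusted p = 0.087) without the highest HFD-late tumor and -1.25 (adjusted p = 0.078) within scan session 1. Over 19 other settings it ran from -1.75 to -0.32, with adjusted p from 0.018 to 0.699, and passed the test in 3. How far the probe also reads RNA of the near-identical paralogue Chi3l4 was not tested.

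Retnla encodes a small secreted resistin-like protein of alternatively activated macrophages, also made in white fat. The HFD-early tumors were at -2.51, -2.78 and -1.54, and the HFD-LFD-early tumors at -2.72, -1.42 and -2.45. The 16 measured late tumors ran from -3.65 through a median of -0.58 to 1.43. All 6 early tumors were below the late median, but the lowest value of all was a late one, the fourth HFD-late tumor at -3.65, so the ranges overlapped. Retnla fell by 1.60 ± 0.55 log2 units (SE, 95% interval -2.73 to -0.47) in early tumors, adjusted p = 0.0498.

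That adjusted p sits at the threshold. With each probe fitted on its own, as for the Csf1 probes, the Retnla probe had a limma adjusted p of 0.0506 and was not called. Retnla was lower in early tumors under all 22 other settings and passed the test in 7 of them. The settings without a call included slide as a random block and scan session as a block. With slide as a fixed block the difference was -3.41, which rests on 1 late LFD-HFD tumor against 3 HFD-LFD-early tumors. In the other 21 settings the difference ran from -1.92 to -1.25. Leaving out 1 tumor at a time gave -1.80 to -1.46 and kept the call in 5 of 24 fits, with adjusted p from 0.012 without the fourth HFD-late tumor to 0.118 without the second HFD-early tumor. Within scan session 1 it was -1.37 (adjusted p = 0.320) and within session 2 it was -1.64 (adjusted p = 0.217). On 2 late arrays the Retnla spot lay in a dimmed row and was left out.

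**Figure D3:**
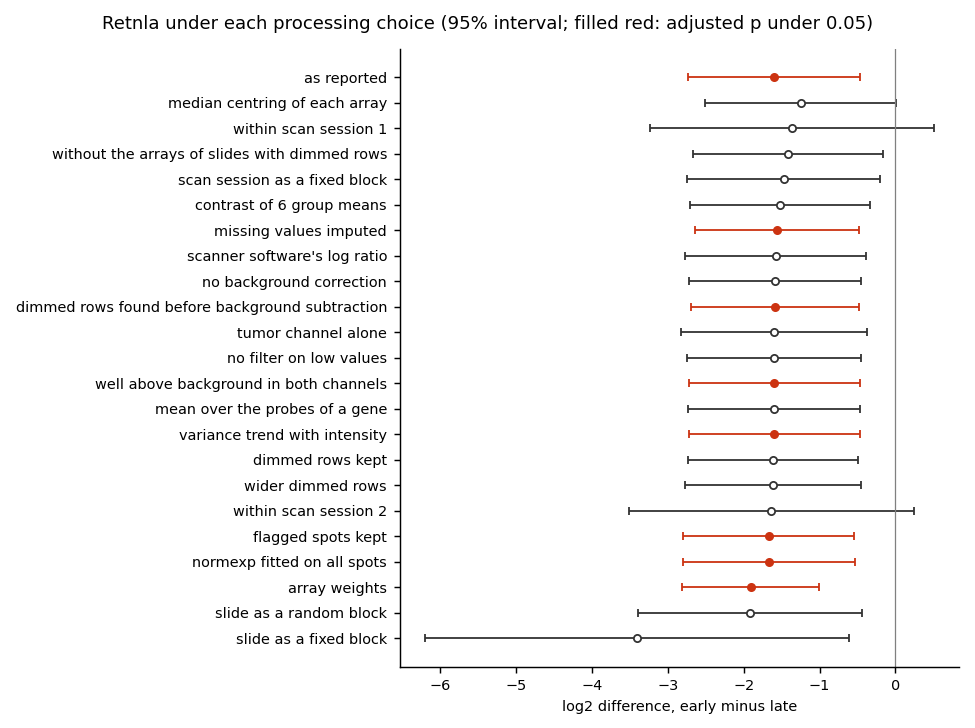
Early minus late log2 difference of Retnla (x axis) under the reported setting and 22 others (y axis), with 95% intervals and filled red points where the adjusted p is under 0.05. All points lie left of 0, and the lowest, -3.41 with slide as a fixed block, has 1 late tumor in its comparison. Of the settings, 7 of the 22 other settings are filled.

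Values for other cells that can carry Retnla or accompany fat stand beside this result. Of 6 tested adipocyte markers (7 on the list), all 6 were lower in early tumors and 0 passed the test, with a median of -0.81 (-0.44 with median centring). Their mean level ran from -3.69 to -2.33 in early and from -4.62 to 1.05 in late tumors. The 2 with the smallest p were Plin1, a lipid droplet coat protein, at -0.89, and the adipokine gene Retn at -0.90. Of 6 tested eosinophil markers (7 listed), 5 were lower, 0 were called and 3 had an unadjusted p under 0.05, against 15.7% and 32% of all genes. They had a mean level of -1.07 to -0.56 in early and -1.05 to 0.16 in late tumors. Ear1 and Ear2, ribonucleases of eosinophils and some macrophages, were at -1.10 and -1.30 (adjusted p = 0.062 for both). The part of these cells in the Retnla difference was not tested.

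Onset was also compared within each diet that had both kinds of tumor. In each, the early tumors shared 1 slide that held no late tumor of that diet, so onset and slide cannot be told apart there. With slide as a random block 1.44% of genes were called within HFD and 0.0723% within HFD-LFD. Within HFD, 11.4% of genes were called and 28.6% had an unadjusted p under 0.05, and the members gave 0 and 2. Those 2 were Chi3l3 and Retnla, at -1.18 and -2.03 (adjusted p = 0.055 and 0.108). Retnla's HFD value turned on 1 tumor: without the fourth HFD-late tumor it was -2.71 with an adjusted p of 0.0092. Within HFD-LFD, 0.714% of genes were called and 14.1% had an unadjusted p under 0.05, and the members gave 0 and 0. Retnla there was -0.75 ± 1.05, over 3 early and 2 late tumors. Of 5 tested adipocyte markers within HFD-LFD, 3 were higher and 2 lower in early tumors, with a median of 0.01 and 0 called. Within HFD all 6 tested were lower, with a median of -1.26 and 0 called. The test of the difference between both onset changes of Retnla gave -1.28 ± 1.33 (adjusted p = 0.814).

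**Figure D4:**
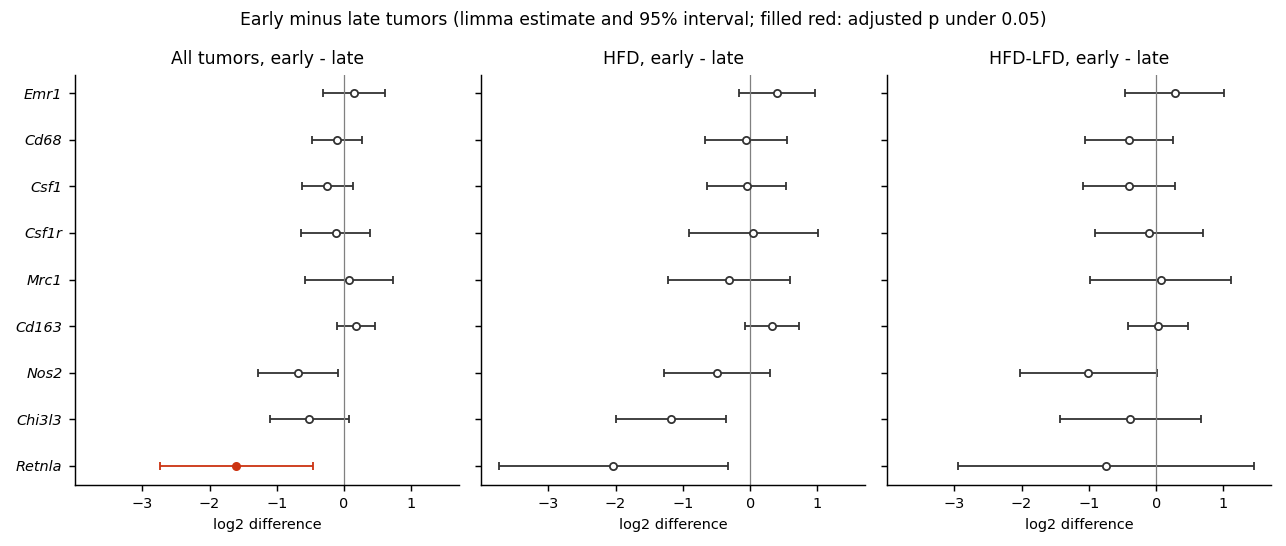
Early minus late log2 difference (x axis) with its 95% interval for each gene (y axis), over all tumors, within HFD and within HFD-LFD. Only Retnla over all tumors, at -1.60, is filled red for an adjusted p under 0.05. Chi3l3 lies at -1.18 within HFD, with an adjusted p of 0.055.

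The wider gene groups around the members were counted over all tumors, where 15.7% of all genes were called and 9.6% were called and lower. Of 20 further macrophage markers, 2 rose in early tumors and 0 fell: Msr1, a scavenger receptor, by 0.70 (adjusted p = 0.031) and Lyz2, a lysozyme of myeloid cells, by 0.68 (adjusted p = 0.044). The list's median was -0.18, with 14 of 20 lower, and with median centring of each array 0.12, with 13 of 20 higher. Its mean level ran from 0.10 to 0.91 in early and from 0.13 to 1.04 in late tumors. Of 12 tested genes of the Csf1 receptor pathway, 2 fell, the kinase subunit gene Pik3cd (-0.43) and the transcription factor gene Fli1 (-0.59). Neither passed the test under any of 3 other scalings or without the slides with dimmed rows. With median centring the list had 8 of 12 higher, a median of 0.26, and 1 call, higher, and the tumor channel alone also gave 1 higher and 0 lower. The scanner's own ratio gave 0 higher and 2 lower calls of other genes, with 11 of 12 lower. Leaving out the slides with dimmed rows gave the same counts of calls, with 10 of 12 lower. Of 19 further alternative-state genes, 4 fell and 0 rose. Tgm2, a transglutaminase, fell by 1.79 and Pparg, a nuclear receptor of fat and macrophages, by 1.06 (adjusted p = 0.023 and 0.024).

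Of 15 tested classical-state genes, 4 fell and 0 rose, among them the costimulatory ligand gene Cd86 by 0.80 and the interferon-responsive factor gene Irf1 by 0.98 (adjusted p = 0.004 and 0.005). Of 13 genes of arginine metabolism, 4 fell and 0 rose. Nos3, the endothelial nitric oxide synthase, fell by 1.09 (adjusted p = 0.006), while Nos2 did not pass the test. Of 13 genes of monocyte recruitment, 2 fell, the chemokine gene Cx3cl1 (-2.17) and the adhesion molecule gene Vcam1 (-1.55, adjusted p = 0.004 and 0.033).

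Under the 3 other scalings (median centring, the scanner's own ratio and the tumor channel alone) and without the slides with dimmed rows, all genes named from these 6 lists kept their sign. The counts depended on the scaling: with median centring 2 macrophage markers were called higher and 0 lower, and the scanner's own ratio called 0 of them. Of all genes, 22.5% were called with median centring (82.7% of them higher), 12.9% with the scanner's own ratio and 10.3% in the tumor channel alone. No list count is given with slide as a random block, where 6.52% of all genes were called. With median centring the classical-state list gave 0 calls, the alternative-state list 2 higher and 1 lower, and arginine metabolism 2 lower. The tumor channel alone called 0 alternative-state genes: Tgm2 and Pparg had adjusted p of 0.067 and 0.064 there, and Pparg 0.103 with median centring. Monocyte recruitment, whose reported median was 0.10 (8 of 13 higher), gave 3 higher and 1 lower with median centring (median 0.42). Vcam1 was not called with that centring, in the tumor channel alone or without the slides with dimmed rows (adjusted p = 0.073, 0.051 and 0.060). Cd86, Irf1 and Nos3 were not called with median centring either (adjusted p = 0.070, 0.096 and 0.103).

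Marker lists of other cells gave few calls. Of 14 neutrophil markers 5 were higher and 9 lower, with a median of -0.15 and 1 call (7 higher and 7 lower, a median of 0.02 and 0 calls with median centring). Elane, a granule elastase, fell by 0.57 (-0.18 with adjusted p = 0.436 under median centring, and adjusted p = 0.081 in the tumor channel alone), and Mpo was at -0.92 (adjusted p = 0.062). The largest differences of that list, named after their values were seen, were higher and not called: S100a8 at 2.24 and S100a9 at 2.61 (adjusted p = 0.205 and 0.168). Of 5 tested dendritic cell markers Ccr7, a homing receptor, rose by 1.27 (adjusted p = 0.026), and Batf3 was at -0.32 (0.05 with median centring). Of 7 T cell markers 0 were called and 6 were lower, with a median of -0.88. Those 6 had an unadjusted limma p under 0.05, against 32% of all genes. Cd3e and Cd3g, chains of the T cell receptor complex, were at -0.98 and -0.88 (adjusted p = 0.056 and 0.061). Of 5 B cell markers 0 were called, with Cd22 at -0.43 and Blnk at -0.37.

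Epithelial and stromal lists had larger medians than the members in places, with few calls. The 7 luminal markers (keratins, claudins, Epcam and the transcription factor gene Elf5) had a median of -0.97 and 0 calls (Krt19 -2.83, Krt8 -1.72). With median centring the luminal median was -0.48, with 3 higher and 4 lower. The 8 squamous genes had a median of 1.22 and 0 calls (4 higher with median centring and 2 from the tumor channel alone), with Dsg3 at 1.04 and Lor at 1.26 (adjusted p = 0.062 and 0.067). Of 7 basal markers 3 were higher, all keratins, and 4 lower, with a median of -0.38 (0.08 with median centring). Myh11 fell by 2.80, and Acta2 was at -1.40 (adjusted p = 0.058). Of 8 fibroblast markers 3 were higher and 5 lower, with a median of -0.30 (0.06 with median centring). Dcn, a matrix proteoglycan gene, fell by 2.46, and Lum was at -1.15. The part of these cell mixtures in any member's difference was not tested.

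The continuous diets were compared next, 9 HFD tumors with 5 LFD tumors. No member was called, as no gene was (0%) by limma. At an unadjusted p under 0.05 there were 3 members, Csf1r, Mrc1 and Nos2, against 4.33% of genes, and all 3 had an adjusted p of 0.976. LFD tumors were late only and 3 HFD tumors were early, and 4 of the 5 LFD tumors shared 1 slide.

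Nos2 was at 0.44, 1.49, 2.12, 0.55 and 0.13 in the LFD tumors and ran from -0.37 through a median of -0.04 to 0.70 in the HFD tumors. The ranges overlapped between 0.13 and 0.70, and the difference was -0.92 ± 0.30. Mrc1 was at -0.36, -0.97, -0.87, 0.87 and -0.81 in LFD tumors and ran from -0.38 through 0.26 to 1.63 in HFD tumors. All but 1 of the LFD tumors were below 8 of the 9 HFD tumors, and the difference was 0.88 ± 0.35. The Csf1r difference was 0.48 ± 0.22 over the 6 HFD tumors measured on its brightest probe. Its other probes gave 0.79 on A_52_P602091 and -0.25 on A_55_P2025073 (adjusted p = 0.980 over probes), so the sign depended on the probe.

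Within scan session 1 the 3 differences were -1.05 for Nos2, 1.25 for Mrc1 and 0.63 for Csf1r, and none passed the test (lowest adjusted p = 0.315, for Mrc1). Session 3 held 1 LFD tumor and 2 HFD tumors and gave -0.42, -0.61 and 0.06 in the same order, so Mrc1 had the opposite sign there. The other 6 members gave differences of -0.25 to 0.46 with adjusted p of 0.976 or above.

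**Figure D5:**
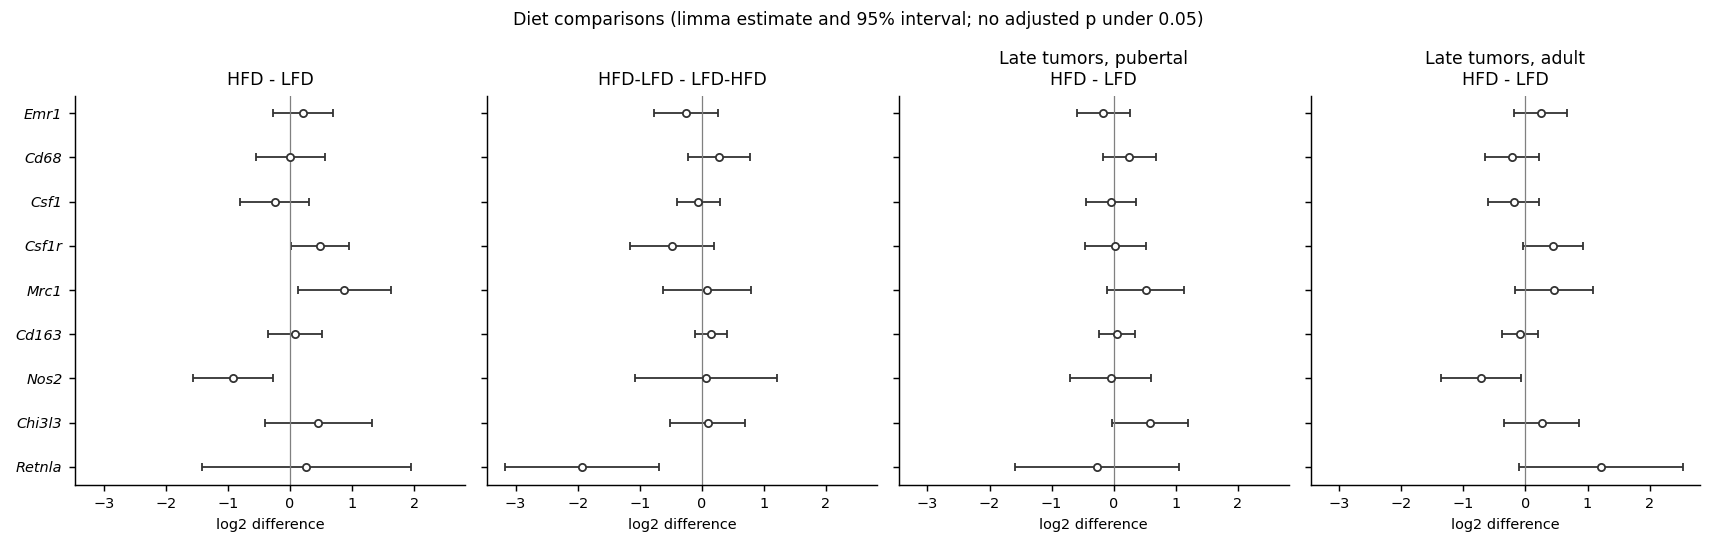
Log2 difference (x axis) with its 95% interval for each gene (y axis) in the 4 diet comparisons: HFD against LFD, HFD-LFD against LFD-HFD, and the pubertal and the adult diet in late tumors. No adjusted p is under 0.05, and the Retnla interval in HFD-LFD against LFD-HFD runs from -3.18 to -0.69.

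In the pair of diets whose sections had been stained, 6 HFD-LFD tumors with 4 LFD-HFD tumors, 0 members were called and 1 had an unadjusted p under 0.05, against 1.32% and 19.9% of genes. Emr1 was at -0.24, -0.29 and 0.05 in HFD-LFD-early and -0.22 and -0.66 in HFD-LFD-late tumors, and at -0.29, 0.66, -0.02 and -0.43 in LFD-HFD tumors. The difference of -0.25 had a 95% interval of -0.77 to 0.26, adjusted p = 0.584. The interval includes 0 and leaves room for a difference of either sign. Cd68 was 0.27 ± 0.22 and Csf1r, on its brightest probe, -0.48 ± 0.30 (adjusted p = 0.544 and 0.411). The other Csf1r probes did not share that sign, at 0.18 on A_52_P602091 and 0.01 on A_55_P2025073 (adjusted p = 0.676 and 0.968).

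Retnla was at -2.72, -1.42 and -2.45 in HFD-LFD-early and -1.38 and -1.51 in HFD-LFD-late tumors. In the LFD-HFD tumors with a value it was at 0.14, 1.21 and -1.25. The 5 and 3 tumors did not overlap, by a narrow margin. The difference of -1.93 ± 0.55 had an unadjusted limma p of 0.0067 and an adjusted p of 0.110. It passed the test with array weights (-2.04, adjusted p = 0.043) and with slide as a random block (-2.30, adjusted p = 0.047). Of all genes, 16.6% and 6.54% were called in those settings. With slide as a fixed block the value of -3.41 (adjusted p = 0.016) set 1 LFD-HFD tumor, at 1.21, against the 3 HFD-LFD-early tumors of its slide, so the spread of that arm was not measured. All LFD-HFD tumors were late, and 3 of the 4 were on slides with dimmed rows, of which 1 lost its Retnla spot. Without those slides, or within scan session 2, the difference was -3.11 against 1 LFD-HFD tumor (adjusted p = 0.195). The 6 adipocyte markers had a median of -1.31 in this comparison, all 6 lower in HFD-LFD and 0 called. Their mean level ran from -3.72 to -1.59 in HFD-LFD tumors and from -2.35 to 1.05 in LFD-HFD tumors. Of 6 eosinophil markers, 2 were called lower, where 1.32% of all genes were called. All 8 squamous markers were higher in HFD-LFD tumors, with a median of 1.75 and 1 called. The part of these cells in the Retnla difference was not tested.

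Among late tumors, the diet around puberty and the adult diet could be separated from each other, but not fully from slide. Of the late tumors, 4 of 5 LFD, 4 of 6 HFD and 2 of 3 HFD-LFD were each on 1 slide of their own group. Of the LFD-HFD tumors, 3 of 4 were on slides with dimmed rows. For the pubertal diet, HFD minus LFD, 0 members were called and 0 had an unadjusted p under 0.05, against 0.00481% and 8.89% of genes. Chi3l3 and Mrc1 gave 0.59 ± 0.29 and 0.52 ± 0.30 (adjusted p = 0.570 and 0.616). For the adult diet, 0 members and 0% of genes were called, and 1 member, Nos2, had an unadjusted p under 0.05, against 5.87% of genes. Its fitted log2 difference was -0.72 ± 0.31 (limma adjusted p = 0.842). Retnla went the other way, 1.21 ± 0.63 (adjusted p = 0.842). All 6 adipocyte markers were also higher with the adult HFD, with a median of 1.09 and 0 called. Of them, 3 had an unadjusted limma p under 0.05. Of 6 eosinophil markers 3 were higher and 3 lower with the adult HFD, with a median of 0.03 and 0 called. Of those 6, 2 had an unadjusted limma p under 0.05. The part of these cells in the Retnla difference was not tested. These contrasts share tumors with the comparisons above.

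Ordered by level, the 6 groups gave 5 neighbouring pairs for each gene, and in 44 of the 45 pairs the ranges of neighbours overlapped. The 1 pair without overlap was Nos2 in HFD-LFD-early (0.17 ± 0.32, SD, n = 3) and HFD-early tumors (-0.31 ± 0.07, SD, n = 3), and in 5 pairs the gap between the means was larger than the pooled SD. Sorting by mean places the closest groups side by side, which favors overlap. These counts were not taken over all genes and are no result about the members. The SD over all tumors was 0.28 for Cd163, 0.37 for Cd68, 0.40 for Csf1, 0.44 for Csf1r and 0.48 for Emr1. It was 0.66 for Chi3l3, 0.68 for Nos2, 0.69 for Mrc1 and 1.39 for Retnla. These spreads come from probes of unequal signal and are not ranked.

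Whether members went up and down together was measured across tumors. Of 9 relations computed, Emr1 with each other member and Csf1 with Csf1r, the closest was Emr1 with Csf1r on its brightest probe. The 3 Csf1r probes differ: the brightest correlated with the others at r = 0.53 and -0.02 over 19 arrays, and the relation was computed on the brightest alone. It had a Pearson's r of 0.59 (permutation p = 0.0076, adjusted 0.068) and a Spearman's rho of 0.69 (permutation p = 0.0016, adjusted 0.014) over 19 tumors. Without the 2 tumors farthest from the Emr1 median r was 0.65, after subtraction of group means 0.88, within scan session 1 0.63 (8 tumors) and within session 3 0.70 (6 tumors). Emr1 with Mrc1 gave r = 0.47 (adjusted permutation p = 0.101) and rho = 0.47 over 23 tumors, and within sessions 0.26, 0.89 and 0.79. Emr1 with Cd163 gave r = 0.47 (adjusted permutation p = 0.107) over 20 tumors, 0.51 within session 1 and -0.36 within session 2. Emr1 with Nos2 gave r = -0.20, and the ligand with its receptor r = 0.19 over 19 tumors. The relations with Cd68, Csf1, Chi3l3 and Retnla lay between -0.26 and 0.34, and no other adjusted permutation p was under 0.05. After subtraction of group means, r of Emr1 was 0.69 with Retnla, 0.51 with Cd68 and 0.46 with Csf1. It was 0.38 with Mrc1, 0.26 with Cd163, 0.21 with Nos2 and -0.36 with Chi3l3. These values after subtraction were not tested.

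For each member the genes with the most similar profile were listed by Pearson's r over at least 20 arrays, as a description with no test, on arrays that share slides and a reference. For Emr1 they were Pid1 (0.90), Fgd5 (0.85) and Praf2 (0.81). For Cd68 they were Apbb1ip, Dok3 (both 0.73) and Rac2 (0.71). For Csf1 they were Lgals9 (0.86), H2-T10 and Snd1 (both 0.83), and for Mrc1 Rgs18 (0.86), Rem1 and F13a1 (both 0.85). For Cd163 they were Igfbp4 (0.82), Gm10413 (0.79) and Fam217b (0.77). For Nos2 they were an unnamed probe (0.77), Plpp7 (0.74) and Ren2 (0.73). For Chi3l3 they were Mlana (0.86), Tnfrsf4 (0.83) and Cilp2 (0.82), and for Retnla Itpr1 (0.85), Zbtb8a and Fbh1 (both 0.83). Csf1r was measured on 19 arrays and had no such list.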

How the data were processed

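The authors scanned two-colour Agilent 4x44K arrays, 1 tumor each against the reference pool, of which 24 were analysed here, and extracted spots with Agilent Feature Extraction (8.5.1.1 in the submitters' processing notes, 11.0.1.1 per the file headers, probe positions on mm9). The deposited columns used were mean and local background intensity in both channels and, as an alternative, the scanner software's log10 ratio of Cy5 over Cy3. The log10 ratio was deposited after the software's own background subtraction and dye normalization. The deposited intensity is not normalized, and the number of arrays limits the precision.

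From the intensities, log2 ratios of tumor to reference were computed in R 4.3.3 with limma 3.58.1: normexp background correction with an offset of 50, then loess within each array (span 0.3). Rows of spots with dimmed Cy5 (bands of 10 rows more than 0.5 log2 units below the array's median, and 1 band on each side) and spots with an outlier mark were set missing. Dimmed rows were first sought in unsubtracted signals and then, after the first member values were seen, in background-subtracted signals. Retnla was called either way (adjusted p = 0.046 and 0.0498). The methods imputed missing values from 10 neighbours, which is an alternative here. A probe stayed in if, on 80% of arrays or more, each channel exceeded its background by over 10 units, which 27263 of 39429 did, and the brightest probe stood for a gene (20932 genes). The reference tables gave a current name to 27324 probes through the accession, to 3518 through the symbol and to 551 through a former symbol; 8036 kept the file's name.

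Comparisons used lmFit and eBayes with Benjamini-Hochberg adjustment over all genes tested and a threshold of 0.05. Early against late, HFD against LFD and HFD-LFD against LFD-HFD were fitted on their own arrays, the others as contrasts of 6 group means over all 24. Genes with too few values for a contrast were left out of it. Relations between members used 100000 permutations, two-sided. The fits were tested on simulated data. Named were the members, the 2 genes of each list with the smallest early against late p, and the 3 genes most similar to each member; 1 member and 1 list gene are not reported here. The members and lists were chosen with earlier results of these data known. Alternatives were other background corrections, scalings, filters, masks, weights and blocks, single scan sessions and leaving out each tumor.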

Additional observations from a re-analysis of the deposited data

Results flagged for a closer look

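Of 22 pairs of a member and a group of 4 to 6 tumors that were searched for a tumor far from the rest, 1 stood out, where chance gives about 1 in 20. The fourth HFD-late tumor had a Chi3l3 level of -2.99, while the other 5 HFD-late tumors lay between -4.81 and -4.20. Its gap to the nearest, divided by the whole range, was 0.665, above Dixon's critical value for 6 samples. The same tumor had the lowest Retnla level of all, at -3.65, so the 2 secreted markers of alternative activation were at opposite ends there. Its Mrc1 level of 0.18 lay inside the range of the other HFD-late tumors. Without it the Retnla difference between early and late tumors was -1.80 (adjusted p = 0.012).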

How the results depend on the processing

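For early against late tumors the count of members called was 1 as reported and 0 with no background correction, median centring, the scanner's log ratio, the tumor channel alone, no filter, dimmed rows kept, wider dimmed rows (chosen after seeing the data), slide as a random or fixed block, session as a block, within session 1, within session 2 and without the slides with dimmed rows. Leaving out 1 tumor gave 0 to 1. Within HFD the count was 0 as reported, 1 with imputed values, 4 with array weights, 1 without the slides with dimmed rows, and 0 to 1 leaving out 1 tumor. Of all genes, 11.4% were called there as reported. The share was 13.5% with imputed values, 37.5% with array weights and 15.4% without those slides. For HFD-LFD against LFD-HFD the count of members was 1 with array weights and with slide as a random block. All genes were called at 16.6% and 6.54% in those settings, and at 1.32% as reported. The value of Retnla with slide as a fixed block set 1 LFD-HFD tumor against the HFD-LFD-early tumors of its slide. The other 5 comparisons gave 0 under every setting run. The cause of these shifts was not tested.

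In early against late tumors Retnla and Cd163 kept their sign in all settings run; signs of uncalled members turned as follows. Emr1 was -0.056 with array weights and -0.14 with slide as a fixed block, and ran from -0.066 (without the third HFD-early tumor) to 0.26 leaving out 1 tumor. Cd68 was 0.38 with median centring, 0.045 from the tumor channel, 0.57 with dimmed rows kept, 0.16 as a mean over probes and 0.27 with the slide block. Csf1 was 0.15 and Csf1r 0.21 with median centring. Csf1r was 0.067 with session as a block and 0.30 within session 1. Mrc1 was -0.040 with array weights and -0.37 with the slide block, where Nos2 was 0.38 and Chi3l3 0.41. Chi3l3 was 0.18 from the tumor channel. The slide block rests on the 1 slide that held both onsets, with 1 late LFD-HFD tumor against 3 HFD-LFD-early tumors, so its values are that tumor against a mean and onset and diet cannot be told apart in them. Calls were gained by Csf1 as a mean over probes (-0.62, adjusted p = 0.025) and Nos2 as a contrast of 6 group means (-0.77, adjusted p = 0.044).

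No paired analysis was possible because the labels give no replicate numbers, and numbers given in accession order pair nothing. Dim signal limits Cd163 and Chi3l3, and missing spots limit Csf1r.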
